A study of Mus musculus with 20 samples.

Results

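Perivascular cells of the mouse fetal gonad are described here gene by gene, by stage and by sex. They are the cells to which the authors' deposited annotation gives that name, 329 of the 94705 cells of the series, of which 48 came from XX and 281 from XY gonads. Droplet-based 3′ RNA sequencing had been run on whole dissociated gonads at 5 embryonic stages (E10.5, E11.5 and E12.5, then E13.5, and last E16.5, in embryonic days), with 2 libraries for each sex and stage and 20 in all. All embryos, XX and XY, were from CD-1 females crossed with males heterozygous for the Tg(Nr5a1-GFP) transgene, and the groups differ in stage and sex, in the dates of their libraries and in what was dissected. The mesonephros was left on the gonad at E10.5 and E11.5 and removed later, so vessels of the mesonephros could enter only the first 2 stages by design. The reporter, driven by the Nr5a1 promoter, served to find the genital ridges at dissection, and no sort was described. How many embryos went into a library is not given in the sources used here.

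Perivascular or mural cells wrap the endothelial tube. Pericytes sit singly on capillaries within the basement membrane, and vascular smooth muscle cells form contractile layers around larger vessels. Endothelial cells recruit them by secreting PDGF-B, which binds PDGFRβ on the mural cell, and hold them through Notch contact, in which JAG1 and DLL4 on the endothelium activate NOTCH3 on the mural cell. In the fetal testis vessels pattern the cords, and Notch signaling around vessels is known to keep interstitial progenitors from maturing into Leydig cells, the androgen-producing cells. The progenitors, marked by Tcf21 and Pdgfra, and the endothelium of the same libraries are the cell types set beside the perivascular cells here.

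Nearly all perivascular cells came from E13.5 XY and from E16.5. No perivascular cell was annotated at E10.5, 1 at E11.5 (XY replicate 2) and 1 at E12.5 XX (replicate 2). At E12.5 XY there were 7 cells of 3025 in replicate 1 (0.231%) and 0 of 7577 in replicate 2, which allows a share of up to 0.0396% (3 counts). The stage E12.5 therefore rests on a single library, and its values below come from 7 cells.

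At E13.5 the share in XY was 1.34% in replicate 1 (118 of 8774 cells, 95% Clopper-Pearson interval 1.11 to 1.61%) and 0.763% in replicate 2 (44 of 5765), whereas XX libraries held 1 of 5760 and 0 of 5495 cells. At E16.5 the share was 1.12% (23 of 2049) and 0.528% (23 of 4360) in XX and 0.771% (31 of 4022) and 1.22% (80 of 6563) in XY. The E16.5 shares of the sexes overlapped, and those of E13.5 did not. Means were 1.05% ± 0.411 (SD, n = 2) at E13.5 XY, 0.825% ± 0.421 at E16.5 XX and 0.995% ± 0.317 at E16.5 XY. These intervals cover counting error only, and the replicates were described as independent biological ones.

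Perivascular cells were also counted against the cells of the vessel lining. There were 65.9 and 35.5 perivascular cells per 100 endothelial cells at E13.5 XY, 86.1 and 195 at E16.5 XY, and 115 and 128 at E16.5 XX. Each of the 4 E16.5 libraries was above both of E13.5 XY in this ratio, although the perivascular shares of all cells overlapped. The endothelial share was lower at E16.5, at 2.04 and 2.15% of cells at E13.5 XY, 0.895 and 0.625% at E16.5 XY and 0.976 and 0.413% at E16.5 XX. The higher ratios of E16.5 thus went with a lower endothelial share of all cells. Shares of captured cells do not give the numbers of either type in the gonad.

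Across the 12 libraries of E12.5 to E16.5 the mean share was 0.281% in XX and 0.722% in XY, a difference of -0.440 percentage points (exact two-sided permutation test with sexes permuted within stage, 216 permutations, p = 0.0833, smallest p allowed 0.00926). The difference was thus not past 0.05, and leaving out each library in turn gave p = 0.0556 to 0.194 in the same exact test. No date is common to the XX and XY libraries of E13.5, and at that stage, where the shares differed most, date and sex cannot be told apart. Counted among perivascular, interstitial and endothelial cells alone the difference was -0.448 points (exact permutation p = 0.509).

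**Figure D1:**
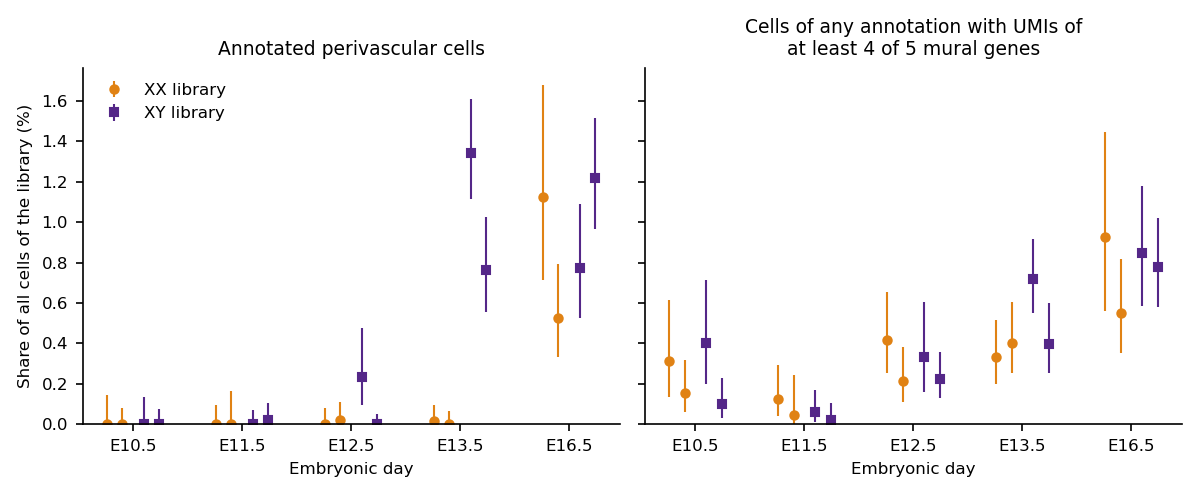
Share of cells annotated perivascular in each library (left), and share of cells of any annotation with UMIs of at least 4 of 5 mural genes (right). The 5 genes are Rgs5, Kcnj8, Abcc9, Ndufa4l2 and Cox4i2. Both are percent of all cells of the library by embryonic day, with XX as orange circles and XY as purple squares. Bars are 95% Clopper-Pearson intervals. On the left the XX libraries of E13.5 lie at 1 and 0 cells, while the E16.5 libraries of both sexes lie between 0.528 and 1.22%.

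Cells with mural transcripts were also counted under any annotation, by a definition chosen after seeing the data: a cell with a UMI of at least 4 of the 5 mural genes Rgs5, Kcnj8, Abcc9, Ndufa4l2 and Cox4i2. E13.5 XX held 19 (0.330%) and 22 (0.400%) such cells, of which 18 and 18 were annotated as interstitial progenitors. E13.5 XY held 63 (0.718%) and 23 (0.399%), of which 49 and 17 were annotated perivascular. The higher XX value was thus level with the lower XY value, and the difference between the sexes over the 12 libraries was -0.0757 percentage points by this definition (exact permutation p = 0.426). Depth enters such a count, so each cell was also thinned to 3000 UMIs and a UMI of at least 2 of the 5 genes was asked for. By this measure E13.5 XX stood at 0.330 and 0.437% and E13.5 XY at 1.11 and 0.486%, which did not overlap, and the difference over the 12 libraries was -0.279 points (exact permutation p = 0.0741). Neither measure passed 0.05.

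Some genes that the definition did not use were also higher in these E13.5 XX progenitor-annotated cells, and Acta2 was not in both libraries. Pdgfrb was at 245 and 294 CPM, here plain counts per 1000000 UMIs of a sum, in them and at 54.5 and 75.6 in the remaining progenitors, and Heyl, a Notch target, was at 190 and 291 against 24.3 and 21.1. Itga1, a collagen-binding integrin subunit, was at 296 and 252 against 9.34 and 8.94. For these 3 genes each value in the mural-gene cells was above both values of the remaining progenitors. Acta2 was at 160 and 330 CPM in them and at 178 and 210 in the remaining progenitors, so its values overlapped. Notch3 stood at 34.0 and 68.7 in them, against 19.9 and 26.3 in the remaining progenitors and 128 and 100 in annotated perivascular cells of E13.5 XY. All 36 lay in the same Leiden cluster (the authors' cluster 20, annotated as interstitial progenitors). How many of the remaining progenitors lay in it is not given here, so the count does not set the 36 apart. At E12.5 XY replicate 2, where no cell was annotated perivascular, 17 cells met the definition and all 17 were annotated as cells invading from the mesonephros. Such cells are not counted among the 329 in what follows, so an absence of annotated perivascular cells is not an absence of cells with mural transcripts.

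The label was set beside Rgs5, Notch3, Pdgfrb and Acta2. These shares describe the label and do not test it, since the clusters were drawn and named from these same transcripts. Of the 329 cells, 137 held UMIs of all 4 genes, 99 of 3, 61 of 2, 31 of 1 and 1 of none, so 71.7% held at least 3. This compares with 10.0% of interstitial progenitors, 1.69% of endothelial cells and 1.20% of germ cells. By library the perivascular share was 57.6 and 77.3% at E13.5 XY, 78.3 and 65.2% at E16.5 XX and 87.1 and 85% at E16.5 XY. Cells were not thinned for these shares, and median UMIs of perivascular cells were 8954.5 and 20619.5 in the E13.5 XY libraries. The markers were not particular to these cells over the whole series: at least 3 UMIs of Rgs5 with a UMI of Notch3 and of Pdgfrb were held by 128 of the 329 and by 869 cells of other annotations, 678 of them mesonephric mesenchyme of E10.5 and E11.5. Rgs5, Notch3 and Pdgfrb separated perivascular cells from both neighbors, but Acta2 did not separate them from interstitial progenitors. After each cell was thinned to 3000 UMIs, Rgs5 was found in 38.1% of perivascular cells at E13.5 XY, 57.8% at E16.5 XX and 75.7% at E16.5 XY (54.9, 69.6 and 84.7% before thinning), and in 0.958, 0.895 and 0.882% of interstitial progenitors. Germ cells, which should lack it, were at 0.199, 0.187 and 1.11%, with 95% Clopper-Pearson intervals of 0.0799 to 0.409, 0.0509 to 0.477 and 0.447 to 2.27%. Progenitors had intervals of 0.719 to 1.25, 0.490 to 1.50 and 0.664 to 1.15%, over the cells of both libraries, which cover counting error only. Library by library progenitors stood at 0.932 and 0.997, 0.681 and 1.02, and 0.890 and 0.878%, above both germ cell values at E13.5 XY (0.264 and 0.0801%) and at E16.5 XX (0.292 and 0.167%), and between those of E16.5 XY (0 and 1.65%).

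The values below are sums of UMIs over the perivascular cells of a library, given as CPM of that sum after scaling by the TMM factors of edgeR, which were 0.922 to 1.26 for perivascular sums (1.26 for the 7 cells of E12.5), 0.913 to 1.03 for progenitors and 0.894 to 1.03 for endothelium. The 7 libraries with at least 5 perivascular cells were E12.5 XY replicate 1, both of E13.5 XY, both of E16.5 XX and both of E16.5 XY, with 7, 118, 44, 23, 23, 31 and 80 cells and 99936 to 1213066 UMIs. Median UMIs per perivascular cell were 10818 at E13.5 XY (8954.5 and 20619.5 by library), 9830.5 at E16.5 XX and 8305 at E16.5 XY. Summed over 20 endothelial genes, perivascular cells were at 246 to 308 CPM, interstitial progenitors at 119 to 180 and endothelial cells at 4816 to 7835, and 3 of the 20 were at 0 in all perivascular sums. The 10 immune genes summed to 0 to 20.7 CPM and the 9 hemoglobin and other erythroid genes to 191 to 1578 CPM, below the interstitial progenitors of the same library in every case, although the order at E12.5 turned without TMM factors. Barcodes were shared with another library by 39 perivascular cells (11.9%, against 11.45% of all cells), and no such barcode was perivascular in the other library. Cells annotated as interstitial progenitors at E16.5 XX carried 734 and 691 CPM of 8 neural genes, against 12.47 to 25.6 in the other 5 libraries, which touches ratios to progenitors in those 2 libraries, and its part in them was not tested.

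Since the annotation was made from these same transcripts, levels in perivascular cells against other cell types are a description with no test. Of 10782 genes with a mean of at least 5 CPM, 290 (2.69%) were above interstitial progenitors in all 7 libraries and 1723 (16%) were below. Of 10649 genes measured against endothelium, 788 (7.4%) were above and 1726 (16.2%) below in all 7. These counts depended on the scaling: without TMM factors 525 genes were above and 884 below progenitors and 1206 above and 1230 below endothelium, and the median log2 ratio of all genes went from -0.20 to -0.07 and from -0.10 to 0.04. The 12 and 14 pericyte genes counted below stayed above without the factors. Among others, Notch2, Pdgfd, Itpr1, Vegfa, Lama1 and Ptch1 were no longer below progenitors in all 7 libraries, nor Hes1 below endothelium. Sums of other types with at least 18 cells were correlated with the perivascular sum of their library. Genes at 20 CPM or more in the perivascular sum were used, which are not independent replicates. Among others, the median Spearman correlation was 0.885 for early interstitial progenitors (3 libraries), 0.867 for cells invading from the mesonephros (2), 0.808 for late interstitial progenitors (5), 0.794 for surface epithelium (6), 0.750 for late supporting-like cells (4), 0.739 for endothelium (6) and 0.538 for germ cells (6). These medians are over different libraries, and in E16.5 XY replicate 2 late progenitors (0.866) were above early ones (0.820). Numbers of cells differed widely between the sums, and the lowest late progenitor value (0.779, E13.5 XY replicate 1) came from 23 cells.

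Genes known from pericytes set perivascular cells apart from progenitors. Of 23 measured, 12 were above interstitial progenitors in all 7 libraries and none below, with a median log2 ratio of 2.57, while the median of all genes was -0.20. Against endothelium 14 of 24 were above and 1 below (median 4.13, all genes -0.10). Rgs5, on chr1:169655501-169695813 (plus strand, GRCm38), encodes a regulator of G protein signaling. It was at 119 CPM at E12.5 XY, 687 and 262 at E13.5 XY, 384 and 331 at E16.5 XX and 953 and 932 at E16.5 XY. Interstitial progenitors stood at 2.64 to 6.10 CPM and endothelium at 0 to 24.0, so no perivascular library overlapped with them.

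Pdgfrb, the receptor of PDGF-B, was at 151 CPM at E12.5, 257 and 358 at E13.5 XY, 285 and 259 at E16.5 XX and 301 and 279 at E16.5 XY, with 21.4 to 103 in progenitors and 0 to 19.0 in endothelium. Notch3, on chr17:32120820-32166852 (minus strand), was at 55.5, then 139 and 102, 179 and 183, and 205 and 183 CPM in the same order. Progenitors held 18.7 to 44.8 CPM of Notch3 and endothelium 0 to 21.9. Both receptors were above both neighbors in every library. Notch3 shares exons with the gene model Gm17276, and as no strand setting of the counting is given in the sources used here, its values are uncertain to that extent. The same holds for these other genes named here, whose exons overlap another gene model: Pdgfra, Ndufa4l2, Mcam, Des, Pde5a, Pde3a, Itpr1, Notch1, Notch2, Maml1, Dll4, Nrarp, Pdgfa, Ednra, Bmp4, Eng, Angpt1, Mfap4, Nr2f1, Wnt5a, Vcl, Eln, Maf, Junb, Hspb2, Cryab, Hmga2, Igfbp7 and Xist.

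The subunits of the ATP-sensitive potassium channel of vascular muscle, which relaxes the cell when open, were both found. Kcnj8, its pore, on chr6:142564837-142571614 (minus strand), was at 63.4 CPM at E12.5, 93.9 and 69.6 at E13.5 XY, 173 and 306 at E16.5 XX and 192 and 134 at E16.5 XY. Interstitial progenitors held 0.507 to 3.52 CPM. Its partner Abcc9, the sulfonylurea receptor subunit on the same chromosome at chr6:142587862-142702315, was listed at 0 in the 7 cells of E12.5, at 113 and 77.9 CPM at E13.5 XY, 170.2 and 221 at E16.5 XX and 95.8 and 81.5 at E16.5 XY. Above progenitors in 6 of 7 libraries, Abcc9 failed only in the sum of 7 cells.

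A trio of small mitochondrial and hypoxia-related proteins known from pericytes separated in time. Ndufa4l2, which dampens respiratory complex activity, was at 119 CPM at E12.5, 341 and 182 at E13.5 XY, 745 and 986 at E16.5 XX and 802 and 680 at E16.5 XY, with 4.04 to 7.53 in progenitors. Cox4i2, an alternative subunit of cytochrome c oxidase, was at 71.4, then 325 and 160, 246 and 327, and 444 and 358 CPM. Both were high already at E13.5 and above progenitors in all 7 libraries. Higd1b, on chr11:102835849-102838040 (plus strand), was at 0 CPM at E12.5, 11.6 and 3.12 at E13.5 XY, 129 and 259 at E16.5 XX and 110 and 97.4 at E16.5 XY. It was low at E13.5 and high in all 4 libraries of E16.5, in both sexes.

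**Figure D2:**
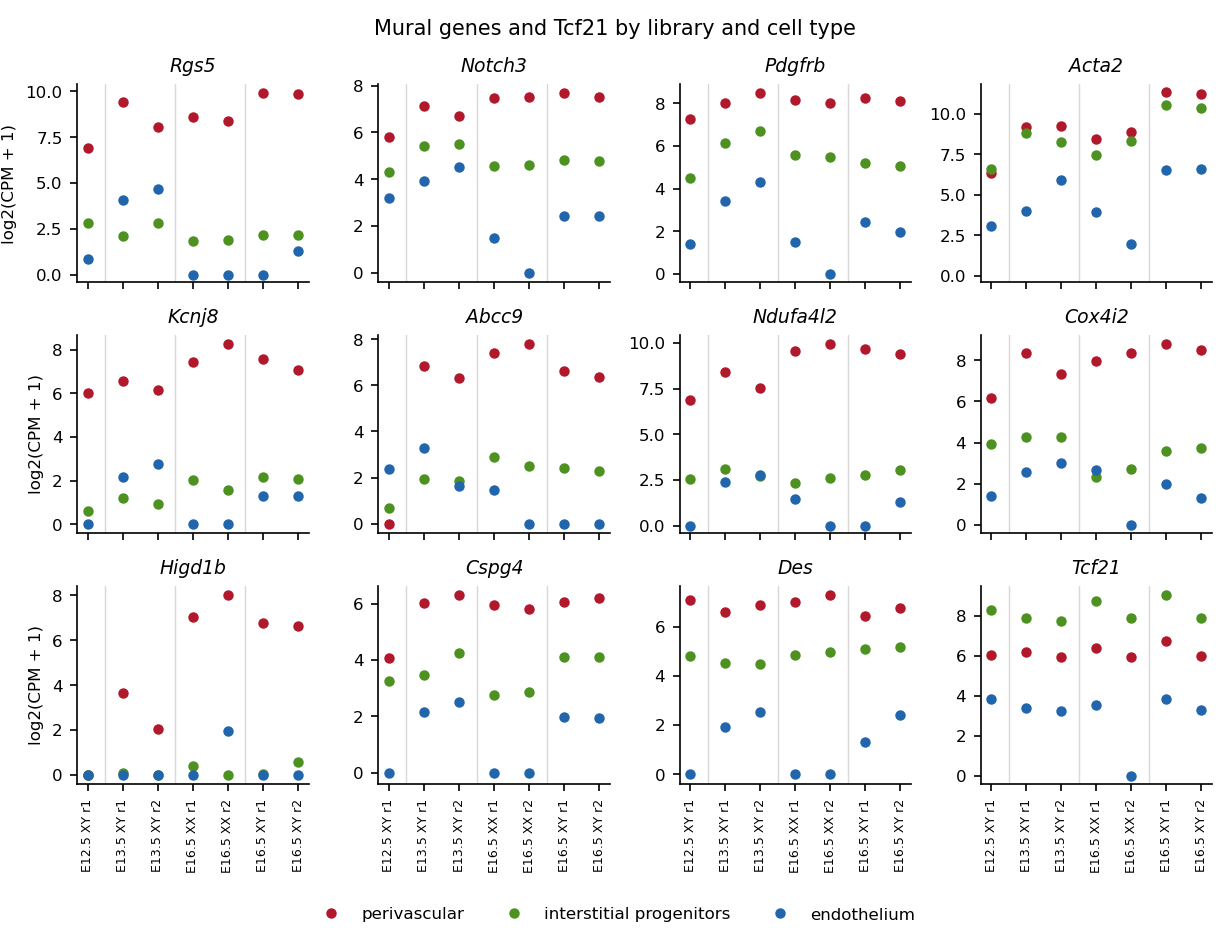
Levels of 12 genes known from pericytes or progenitors as log2(CPM + 1) in the 7 libraries with at least 5 perivascular cells, with perivascular cells in red, interstitial progenitors in green and endothelium in blue. Rgs5, Kcnj8, Ndufa4l2 and Pdgfrb stand above both other types in every library, Higd1b is highest at E16.5, Acta2 runs with the progenitors, and Tcf21 is below them.

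Ranked by their lowest ratio over the 7 libraries, the leading genes against interstitial progenitors included Lgi1, Kcnj8, Ndufa4l2, Rgs5, Map3k7cl, Itga1 and Mcam. Lgi1, which encodes a secreted protein known from synapses, was at 230.0 CPM at E12.5, 197 and 188 at E13.5 XY, 93.9 and 76.5 at E16.5 XX and 79.4 and 51.1 at E16.5 XY, and at 0.377 to 3.67 in progenitors. Its E16.5 values were all below those of E13.5. Itga1 was at 55.5, then 329 and 227, 249 and 297, and 361 and 307 CPM, with 2.15 to 19.9 in progenitors. Lgi1 also led against endothelium, where it was at 0 to 3.70 CPM, followed by Ndufa4l2, Des, Cox4i2, Gucy1a3 and Pdgfrb. Des, an intermediate filament of muscle and pericytes, lay at 84.9 to 157 CPM in perivascular cells and 21.1 to 34.9 in progenitors.

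Genes of vessel tone were in part those of pericytes. Of 22 measured, 9 were above progenitors in all 7 libraries (Kcnj8, Trpc6, Gucy1a3, Gucy1b3, Pde5a, Pde3a, Agtr1a, Npr3 and Rgs5) and 3 below (Itpr1, Ren1 and Rgs2), with a median log2 ratio of 0.87. Gucy1a3 and Gucy1b3 encode the subunits of the guanylate cyclase that senses nitric oxide, and Pde5a breaks down its product. Gucy1b3 lay at 79.3 to 152 CPM in perivascular cells, 14.5 to 33.3 in progenitors and 0 to 7.13 in endothelium. The angiotensin receptor gene Agtr1a was at 31.7 CPM at E12.5, 9.83 and 9.35 at E13.5 XY, 49.9 and 72.2 at E16.5 XX and 19.2 and 20.7 at E16.5 XY, with 0.525 to 2.64 in progenitors. Ren1 was among the genes below progenitors.

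Notch genes were spread over the vessel wall. Against progenitors 6 of 17 measured genes were above in all 7 libraries (Jag1, Notch1, Notch3, Maml2, Hey2 and Heyl) and 4 below (Notch2, Maml1, Dlk1 and Numb). Against endothelium 6 of 22 were above (Jag1, Notch3, Rfng, Dlk1, Hey2 and Heyl) and 10 below (Jag2, Dll4, Notch1, Notch4, Lfng, Mfng, Hes1, Hes5, Nrarp and Numb). The medians were 0.24 against progenitors and -0.77 against endothelium, on the log2 scale. The ligand Dll4 lay at 0 to 1.79 CPM in perivascular cells and 30.7 to 102 in endothelium. The ligand Jag1 was at 31.7 CPM at E12.5, 177 and 139 at E13.5 XY, 26.4 and 21.2 at E16.5 XX and 110 and 167 at E16.5 XY, and above the endothelium of its library each time. Its XX values were the lowest of the 7 libraries.

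Among the receptors, Notch1 lay between the neighbors, at 41.1 to 91.4 CPM with 5.41 to 19.5 in progenitors and 76.7 to 233 in endothelium. The target Heyl was at 103, then 379 and 348, 117 and 310, and 290 and 337 CPM, above both neighbors in all 7 libraries. Hey2, a related repressor, was at 23.8, then 51.0 and 37.4, 8.80 and 17, and 57.5 and 63.3 CPM, again with its low values in XX. Dlk1, a non-canonical Notch ligand of immature stroma, was below progenitors and above endothelium throughout.

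The ligand Pdgfb and its receptor Pdgfrb lay in different cells, unlike the ligand Pdgfa. Pdgfb lay at 25.7 to 73.6 CPM in endothelium and 0 to 8.21 in perivascular cells, the reverse of its receptor Pdgfrb. Pdgfra, the receptor of stromal cells, was at 11.7 to 43.6 CPM in perivascular cells and 160 to 232 in progenitors. Of 6 measured PDGF genes, Pdgfrb alone was above progenitors in all libraries and Pdgfd, Pdgfra and Pdgfrl were below. Pdgfa was at 47.6, then 36.7 and 41.5, 61.6 and 97.7, and 82.1 and 101 CPM, above the endothelium (0 to 29.5) in each library.

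Other vessel signals lay on either side. Of 40 measured, 16 were below endothelium in all 7 libraries, among them the receptors Kdr, Flt1, Tek, Tie1 and S1pr1, and 8 were above (Vegfd, Tgfb2, Tgfb3, Ednra, S1pr2, Cxcl12, Bmp4 and Id3). Against progenitors 3 of 34 were above (Nrp1, Eng and Bmp4) and 9 below, among them Vegfa. Without TMM factors 5 were below, and Vegfa, Edn1, Ece1 and Ephb4 no longer were. Angpt1, the mural ligand of the receptor TIE2, was low in perivascular cells at 0 to 30.1 CPM and at 0 to 1.32 in endothelium. Ednra, the endothelin receptor of smooth muscle, was at 39.7 CPM at E12.5 and 111 to 181 in the other 6 libraries, with 0 to 11.8 in endothelium and 47.4 to 171 in progenitors.

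**Figure D3:**
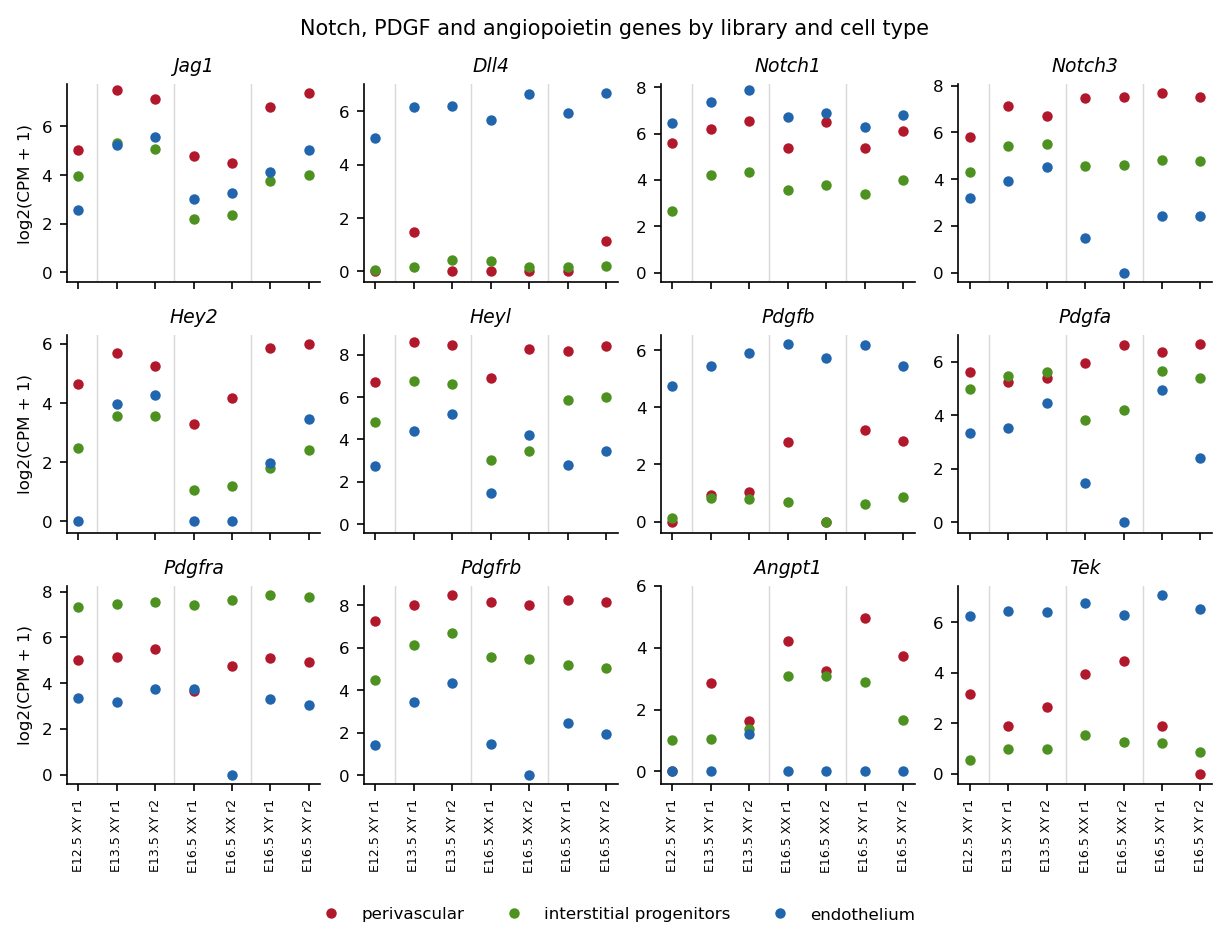
Levels of 12 genes of Notch, PDGF and angiopoietin signaling as log2(CPM + 1) in the same 7 libraries and colors. Ligands Dll4 and Pdgfb and the receptor Tek lie high in endothelium, Notch3, Heyl and Pdgfrb lie high in perivascular cells, and Jag1 and Hey2 of perivascular cells dip in the XX libraries of E16.5.

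The matrix told perivascular cells from both neighbors in opposite directions. Of 33 interstitial matrix genes, 2 (Col12a1 and Postn) were above progenitors in all 7 libraries and 11 below, among them Mfap4, Dcn, Lum and Lox (median -0.68), whereas 19 of 32 were above endothelium and 1 below (median 2.02). Of 19 basement membrane genes 4 were above progenitors (Col4a2, Lama4, Nid1 and Agrn) and 3 below, and against endothelium 1 of 16 was above and 6 below. Over all genes 2.69% were above and 16% below progenitors, and 7.4% above and 16.2% below endothelium. Without TMM factors 6 were above progenitors, with Col4a1 and Sparcl1 added, and 2 below. Against endothelium 3 were then above, with Col4a5 and Nid1 added. Col4a1, a chain of the sheet that surrounds vessels, was at 246 CPM at E12.5 and 718 to 1518 in the other 6 libraries, with 51.2 to 607 in progenitors and 475 to 1358 in endothelium. Its exons are shared with another gene, as are those of Col4a2.

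Genes of interstitial progenitors were mostly lower. Of 29 measured, 14 were below progenitors in all 7 libraries and 1 above (Nr2f1), with a median log2 ratio of -1.24. Tcf21 lay at 59.5 to 104 CPM in perivascular cells and 212 to 523 in progenitors, and Wnt5a at 15.9 to 92.4 and 87.1 to 362. Against endothelium 11 of 25 were above and 3 below. Summed over the 30 genes of the list, perivascular cells stood between the types in each library. They were at 1974 to 2430 CPM, progenitors at 3137 to 6233 and endothelium at 1068 to 1972. Gene by gene, Tcf21, Wnt5a and Dlk1 lay between the types in all 7 libraries, while Wt1 was below both and Nr2f1 above both. The Leydig genes had no member above progenitors in all libraries and 4 of 11 below, and the supporting cell genes 0 and 1 of 9.

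The contractile genes followed another pattern, since interstitial progenitors held many of them too. Of 29 measured, 7 were above progenitors in all 7 libraries (Tagln, Des, Tpm2, Cald1, Mrvi1, Ppp1r14a and Crip1) and none below, with a median log2 ratio of 0.54. Against endothelium 12 were above and 3 below (Pcp4l1, Mkl2 and Cav1). Acta2, smooth muscle actin, on chr19:34241090-34255590 (minus strand), was at 79.3 CPM at E12.5 XY, 594 and 616 at E13.5 XY, 349 and 472 at E16.5 XX and 2669.5 and 2461 at E16.5 XY. Progenitors were at 95.2, then 447 and 308, 174 and 324, and 1522 and 1350.2 CPM. Perivascular cells were above progenitors in 6 of 7 libraries, and at E12.5 the order depended on the scaling, since without TMM factors the 7 cells stood at 100.1 CPM and progenitors at 94.2. Cnn2 and Mylk also came to lie above progenitors in all 7 libraries without the factors. Both types were highest in Acta2 at E16.5 XY.

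After thinning to 3000 UMIs, Acta2 was found in 53.1% of perivascular cells at E13.5 XY, 42.2% at E16.5 XX and 85.6% at E16.5 XY (71.0, 63.0 and 97.3% before thinning). The share in germ cells was 3.40, 1.31 and 28.4%. Germ cells, which should lack the transcript, held it far more often at E16.5 XY than elsewhere, and the part of such background in the Acta2 levels of E16.5 XY was not tested.

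Short stretches before the transcription start are given for 5 genes with a known motif in capitals. They are the 4 contractile genes that hold the CArG box, and Hey2 as a Notch target described above. Of these 4, Myl9 was called between stages below, Cnn2, Vcl and Srf were not, and none was called between the sexes. The other contractile genes called between stages are not among the 4. The CArG box, to which the serum response factor binds, was searched on both strands in the 250 bases before each RefSeq start (GRCm38.p6). It was found for 4 of 25 contractile genes with an entry (16%), against 1.62% of 27025 genes. The motif of RBPJ, the DNA-binding partner of Notch, was searched as TGGGAA on both strands and found for 6 of 20 Notch genes (30%), 9 of 25 contractile genes (36%), 7 of 18 pericyte genes (38.9%) and 24.1% of all genes. The CArG box of Vcl, Cnn2, Myl9 and Srf (2 boxes in the stretch of Srf) and the RBPJ motif of Hey2 are shown, and a match is a description of letters, not a site or a cause. The windows lie at chr2:156775273-156775342 (Myl9, plus strand), chr10:79988514-79988583 (Cnn2, plus), chr14:20929148-20929210 (Vcl, plus), chr17:46556205-46556274 (Srf, minus) and chr10:30842955-30843020 (Hey2, minus).
Myl9: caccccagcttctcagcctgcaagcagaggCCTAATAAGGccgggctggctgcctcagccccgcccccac
Cnn2: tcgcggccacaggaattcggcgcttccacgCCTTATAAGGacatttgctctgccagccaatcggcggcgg
Vcl: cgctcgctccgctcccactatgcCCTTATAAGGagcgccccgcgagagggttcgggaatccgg
Srf: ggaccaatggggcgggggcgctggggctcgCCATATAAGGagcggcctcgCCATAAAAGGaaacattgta
Hey2: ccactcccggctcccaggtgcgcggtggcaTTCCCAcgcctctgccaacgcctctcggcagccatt

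How XY perivascular cells changed from E13.5 to E16.5 was tested on the sums. The XY libraries of these stages have no date in common, so date and stage cannot be told apart in this test. The same holds for the differences between cell types below, beyond what the library block takes out. Of 26 contractile genes tested 8 rose (Acta2, Actg2, Tagln, Myl9, Tpm2, Lmod1, Crip1 and Cav1), none fell, and 22 had a positive log2 fold change, with a median of 1.03 beside -0.00 over all genes. The quasi-likelihood test of edgeR was used, with p-values adjusted after Benjamini and Hochberg, and calls needed an adjusted p under 0.05 with a log2 change of 0.361 or more. By it, 43 of 6563 genes rose (0.655%) and 9 fell (0.137%). The test rests on 2 libraries a stage: without either E13.5 XY library no gene was called (744 and 498 genes at an unadjusted p below 0.05, against 1052 with all), without E16.5 XY replicate 2 there were 20 calls, and without E16.5 XX replicate 1 or replicate 2, which enter the estimate of the spread and the filter on low counts, 186 and 124 (with 8732 and 8750 genes tested).

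Acta2 rose by 2.17 ± 0.24 (log2, SE, edgeR adjusted p = 0.00428), and its levels at the stages, given above, did not overlap. Germ cells also held Acta2 more often at E16.5 XY than at E13.5 XY, and the part of such background in this rise was not tested. Actg2, enteric smooth muscle actin, on chr6:83512905-83536265 (minus strand), was at 26.8 and 20.8 CPM at E13.5 XY and 214 and 242 at E16.5 XY, and rose by 3.33 ± 0.31 (edgeR adjusted p = 0.00316). Tagln, the actin-binding protein transgelin, on chr9:45929619-45936058 (minus strand), was at 254 and 268 CPM and then at 1349.8 and 742 (log2 2.08 ± 0.31, edgeR adjusted p = 0.015), and its exons overlap those of Pcsk7. Myl9, the regulatory myosin light chain, was at 218 and 250.3 CPM and then at 1730.4 and 874 (log2 2.55 ± 0.34, edgeR adjusted p = 0.00975). Every one of these levels at E16.5 XY lay above both of E13.5 XY. Cav1, the coat protein of caveolae, was at 5.36 and 17.7 CPM and then at 170 and 96.1, and Lmod1, which nucleates actin filaments in muscle, at 6.26 and 15.6 and then at 54.8 and 59.6. Myh11, the smooth muscle myosin heavy chain and a late marker of that lineage, was at 13.4 and 35.3 CPM and then at 110 and 64.5, and was not called (log2 1.88 ± 0.46, edgeR adjusted p = 0.0867). Tpm1, a tropomyosin, was at 1661 and 2349 CPM and then at 1618 and 1899.7 and its values overlapped.

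**Figure D4:**
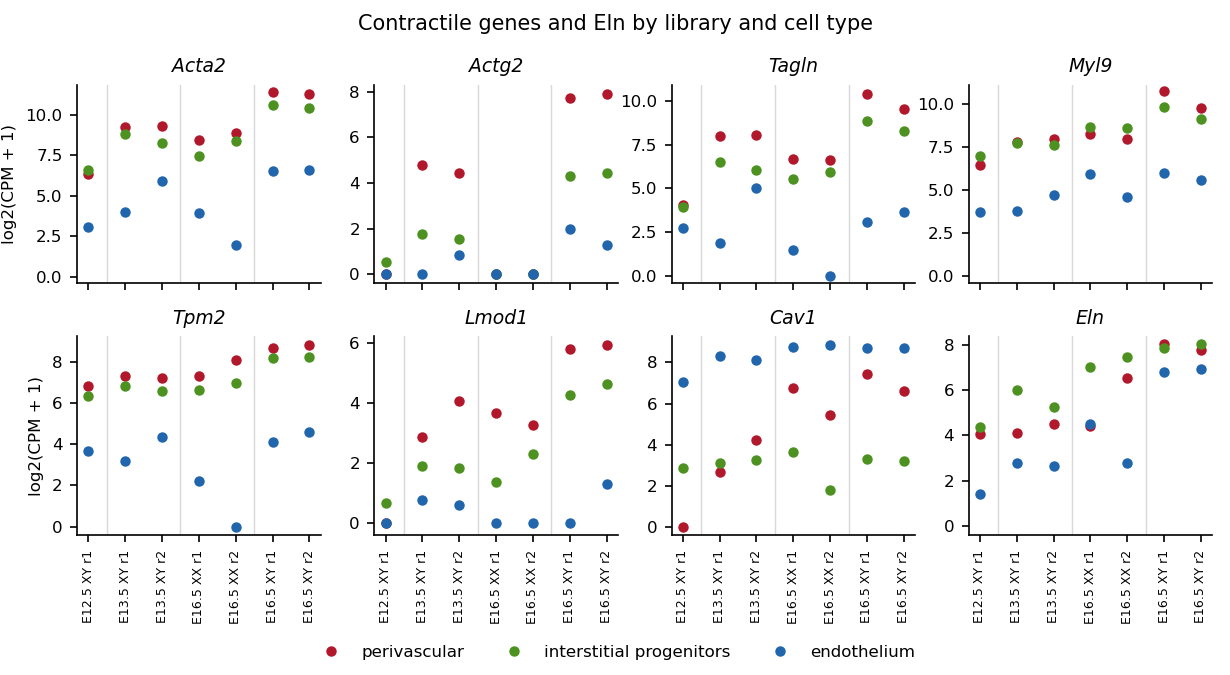
Levels of 7 contractile genes and of Eln as log2(CPM + 1) in the same 7 libraries and colors. In perivascular cells Acta2, Actg2, Tagln and Myl9 are highest at E16.5 XY, and interstitial progenitors follow the same course at lower levels for Actg2 and Tagln.

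Of 23 pericyte genes tested 1 rose (Higd1b, log2 3.81 ± 0.51, edgeR adjusted p = 0.00975) and none fell, with a median of 0.57. Rgs5 (log2 1.08 ± 0.38, edgeR adjusted p = 0.208), Notch3 (0.77, adjusted p = 0.214) and Ndufa4l2 (1.59, adjusted p = 0.0533) were not called, and Pdgfrb stood at -0.01 (adjusted p = 0.998). A missed threshold does not show that levels were equal, since in simulated sums of this size 10% of genes changed by 1 on the log2 scale were recovered and 84% of those changed by 2.

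Of 28 interstitial matrix genes tested 3 rose and none fell. Eln, elastin, was at 16.1 and 21.8 CPM at E13.5 XY and 263 and 220.3 at E16.5 XY (log2 3.74, edgeR adjusted p = 0.00975), Mfap4, a microfibril protein, at 47.4 and 43.6 and then 227 and 330 (2.70, adjusted p = 0.015), and Mgp, matrix Gla protein, at 202 and 167 and then 747 and 806 (2.16, adjusted p = 0.0208). None of these levels overlapped between the stages. No basement membrane gene of 14, no vessel signal of 27, no vessel tone gene of 18 and no PDGF gene of 3 was called. Of 13 Notch genes, Dlk1 rose (178 and 112 CPM, then 578 and 466, log2 1.93, edgeR adjusted p = 0.0174), and of 23 progenitor genes Dlk1 rose and Maf, a transcription factor of interstitial cells, fell by 1.79 (adjusted p = 0.0356).

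The immediate early genes Fos, Junb and Ier2, induced by stress and by dissociation, rose as well (3 of 11 genes of that list, median 1.71). The whole list summed to 2094 and 1754 CPM at E13.5 XY and 5553 and 4373 at E16.5 XY in perivascular cells, and to 4951 and 3092 and then 9860 and 7163 in progenitors, and its part in the other changes was not tested. No cell cycle gene of 18 was called, and the share of cells in S or G2/M phase by the authors' calls was 39.8 and 54.5% at E13.5 XY and 45.2 and 38.8% at E16.5 XY. Of 5 endothelial genes tested Esam, an adhesion molecule of endothelial junctions, rose (23.2 and 12.46 CPM, then 65.7 and 75.5, log2 2.05, edgeR adjusted p = 0.036), while the 20 endothelial genes summed to 268 and 266 CPM and then 285 and 290. No Leydig gene of 6, no supporting cell gene of 7, no germ cell gene of 3 and no hormone-related gene of 7 was called, and of 5 erythroid genes Hbb-y fell.

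The 10 largest rises named by rule included Hspb2, Pdlim3, Cavin2, Cryab, Rgs17 and Aoc3 beside Higd1b, Eln and Cav1, and 5 of the 10 had at least 10 UMIs at each stage. Cryab, a small heat shock protein of muscle, was at 21.5 and 20.8 CPM and then at 225 and 186 (log2 3.34 ± 0.30, edgeR adjusted p = 0.00195). Cavin2, a partner of caveolin, was at 2.68 and 10.4 CPM and then at 73.9 and 68.2. Aoc3, an amine oxidase of vascular smooth muscle, had 1 UMI at E13.5 XY and 32 at E16.5 XY, so no fold is given for it. The 9 genes that fell were Hbb-y, the embryonic globin, Sema6a, Hmga2, Asb4, Nrip1, Maf, Efna5, Hsp90ab1 and Npm1. Hmga2, a chromatin protein of immature cells, went from 89.4 and 204 CPM to 11 and 18.3 (log2 -3.13 ± 0.51, edgeR adjusted p = 0.0208), and Sema6a from 67.0 and 110.1 to 8.21 and 9.74. Hbb-y lies on transcripts of red cells and went from 260 and 196 to 0 and 18.3 CPM.

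Whether this change between stages was particular to perivascular cells was tested as a difference between their change and that of another type in the same XY libraries. At E13.5 XY 5583 of 5606 progenitors had the early annotation, and at E16.5 XY 6095 of 6119 the late one. A change of progenitors below is thus almost wholly one between early and late annotated cells, not within 1 annotated type. Acta2 (0.11 ± 0.13, edgeR adjusted p = 0.883) and Actg2 (0.04 ± 0.36, adjusted p = 1) showed no called difference from interstitial progenitors, whose Acta2 went from 447 and 308 to 1522 and 1350.2 CPM. Tagln rose less in perivascular cells by 0.39 on the log2 scale, without passing the test (-0.39 ± 0.14, edgeR adjusted p = 0.153). In this fit 187 of 17213 genes (1.09%) changed more toward higher levels in perivascular cells and 247 (1.43%) more toward lower ones. The count depended on the fit: with equal numbers of cells of both types it was 37 in all and without the library as a block 0 (812 genes at an unadjusted p below 0.05), and leaving out each library gave 175 to 238.

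Of 27 pericyte genes tested 7 moved up relative to progenitors (Rgs5, Pdgfrb, Mcam, Notch3, Cox4i2, Ndufa4l2 and Epas1) and 2 down (Cd248 and Des). Rgs5 differed by 1.50 ± 0.18 (edgeR adjusted p = 2.65e-13) and Notch3 by 1.34 ± 0.19 (adjusted p = 2.04e-09). The p-values of this fit match a normal distribution at the change over its SE, although only 2 residual degrees of freedom were left. Spread was thus taken almost wholly from all genes together. A gene's own spread between libraries hardly entered its SE or p-value, here and for every gene called against progenitors. Over 11 alternatives Rgs5 ranged from 0.45 to 3.26 and Notch3 from 1.21 to 1.69. Without TMM factors, Rgs5 at E13.5 XY was at 633 and 258 CPM in perivascular cells and at 3.04 and 5.57 in progenitors. The ratio thus differed widely between the 2 libraries of that stage, a spread that the SE of the fit does not give. Progenitor Notch3 went from 41.5 and 44.8 to 26.9 and 26.3 CPM and progenitor Pdgfrb from 69.4 and 103 to 35.3 and 32.1 CPM, while perivascular Notch3 went from 139 and 102 to 205 and 183 and perivascular Pdgfrb overlapped between the stages. With equal numbers of cells none of these 9 genes was called, and among the named genes Cald1, Tpm1, Junb, Egr1, Lhx9, Cbln1, H19, Col14a1, Col1a1, Col1a2 and Col3a1 still were.

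Of 31 contractile genes 8 moved up relative to progenitors (Myl9, Tpm1, Cald1, Pcp4l1, Vcl, Actn1, Crip1 and Cav1) and 1 down (Des). Cald1, caldesmon, went from 1221 and 1566 CPM to 1667 and 2209 in perivascular cells and from 1031 and 1508 to 812 and 993 in progenitors (0.92 ± 0.12, edgeR adjusted p = 5.82e-11). Of 34 interstitial matrix genes 8 moved down and 1 up (Eln). Col1a1, a chain of collagen I, was at 445 and 253 and then at 320.3 and 565 CPM in perivascular cells, while progenitors went from 582 and 356 to 1366 and 1813 (-1.43 ± 0.14, edgeR adjusted p = 7.23e-20). Col1a1 of perivascular cells overlapped between the stages, and that of progenitors did not.

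Other lists held genes that moved against progenitors too. Of 24 Notch genes 4 moved up (Jag1, Notch3, Hey2 and Nrarp) and 1 down (Dlk1), of 7 PDGF genes 2 up, of 40 vessel signals 3 up and 1 down, of 29 vessel tone genes 2 up (Rgs5 and Trpc6) and 1 down (Agtr2), of 25 basement membrane genes 2 up and 5 down, and of 29 progenitor genes 1 up and 4 down. The largest positive differences named by rule that had 10 UMIs in every group were Sox6 (4.13), Cbln1 (3.63) and Cav1 (3.40), and Agtr2 (-3.50) was the like negative one. Sox6 and Cbln1 fell in progenitors, from 28.2 and 41.6 to 2.52 and 2.58 CPM and from 142 and 213 to 22.0 and 13.1, while perivascular cells went from 4.47 and 8.31 to 5.48 and 9.74 and from 5.36 and 17.7 to 19.2 and 9.74 CPM, which overlapped between the stages for both genes.

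Markers of other cell types, stress and the cell cycle moved with these genes, and their part in them was not tested. Against progenitors, of 12 supporting cell genes 3 moved up (Amh 1.58, Cst9 1.20 and Bmp2 1.89), of 9 erythroid genes 1 (Hbb-bs 0.68), of 16 endothelial genes 1 (Ets1 1.10), of 12 stress genes 4 (Junb, Egr1, Ier2 and Hspb1) with Jund down, of 20 cell cycle genes 2 (Ccnb1 and Ccnd1) and of 16 hormone-related genes Aldh1a1 up and H19 down. No Leydig, immune, germ cell, epithelial or neural gene was called. Amh, a hormone of Sertoli cells, was at 8.05 and 3.12 CPM at E13.5 XY and at 0 and 73 at E16.5 XY in perivascular cells, so its value rests on replicate 2. The supporting cell genes summed to 99.2 and 189 and then 249 and 330 CPM in perivascular cells and to 196 and 257 and then 347 and 241 in progenitors, and the erythroid genes to 931 and 517 and then 1221 and 1060.0 against 4866 and 2774 and then 4393 and 7003.

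Against endothelium 83 of 9385 genes (0.884%) moved up and 56 (0.597%) down. Of 24 pericyte genes 5 moved up (Rgs5, Mcam, Notch3, Ndufa4l2 and Gja4), of 28 contractile genes 7 (Tagln, Tpm1, Cald1, Cnn2, Csrp1, Crip1 and Cav1) and of 32 interstitial matrix genes 5 moved down (Col1a1, Fbln2, Fbln5, Mgp and Igfbp7). Of 6 erythroid genes 3 moved up (Hba-a1 2.24, Hbb-bt 2.096 and Hbb-bs 1.54), of 8 supporting cell genes 1 (Cst9 2.28), of 11 stress genes 2 (Junb and Ier2), of 20 cell cycle genes Ccnb1, of 10 hormone-related genes H19, and of 20 endothelial genes Esam up and Egfl7 down, and their part in the other differences was not tested. The erythroid genes of endothelium summed to 6058 and 10130.5 CPM at E13.5 XY and 1323 and 4401 at E16.5 XY. Rgs5 (5.77) came to 0.00083 without the highest doublet scores (edgeR adjusted p = 0.989) and Ndufa4l2 (4.23) to 1.36 (adjusted p = 0.83), and they were called in 8 and 5 of 11 alternatives. For Tagln (2.74) the direction was not stable: it was -0.75 without the highest doublet scores and -0.55 with equal numbers of cells (edgeR adjusted p = 0.717 and 0.871), and 0.31 and 1.96 without E13.5 XY replicate 2 or E16.5 XY replicate 1 (adjusted p = 0.969 and 0.201). Gja4, a gap junction protein of arteries, went from 3.58 and 3.12 CPM to 16.4 and 29.2 in perivascular cells and from 267 and 211 to 60.5 and 25.8 in endothelium (5.45 ± 0.60, edgeR adjusted p = 2.29e-06, 7 and 30 UMIs in perivascular cells). Its course was opposite in both cell types. Ifitm1 went from 66.1 and 68.5 to 534 and 441 CPM in perivascular cells, and from 22.0 and 32.8 to 14.7 and 15.8 in endothelium (3.65 ± 0.33, edgeR adjusted p = 6.14e-08). Both were called under each of the 11 alternatives that gave them a value. Acta2 did not differ past the threshold (0.62 ± 0.33, edgeR adjusted p = 0.486).

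XX and XY perivascular cells were compared at E16.5, where both sexes have 2 libraries. Smooth muscle actins were lower in XX: 2 of 23 contractile genes tested fell past the threshold, none rose, and 2 had a positive log2 fold change (median -0.92, all genes 0.02). Of all 4824 genes tested 3 were called (0.0622%), namely Xist higher and Acta2 and Actg2 lower in XX. Xist, the RNA that silences an X chromosome, was at 1402 and 1585 CPM in XX and at 0 in XY as the sex labels of the sums call for. The Y-linked genes Ddx3y (fitted log2 -7.93, edgeR adjusted p = 0.141) and Eif2s3y (-7.52, adjusted p = 0.147) were not called. This test thus missed known differences between the sexes. Acta2 was at 349 and 472 CPM in XX and 2669.5 and 2461 in XY (log2 -2.54 ± 0.22, edgeR adjusted p = 0.0255). Within the replicate 2 libraries, which share a date, it was 472 against 2461, and the replicate 1 libraries share none. Germ cells, described above, also held Acta2 more often at E16.5 XY than at E16.5 XX. The part of such background in this difference was not tested.

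Actg2 was at 0 CPM in both XX libraries and 214 and 242 in XY, at least 39.7-fold lower by the floor of 3 counts over the 522880 UMIs of both XX sums (edgeR adjusted p = 0.0318). Without E16.5 XY replicate 2 neither actin was called (adjusted p = 0.0955 for Acta2 and 0.0507 for Actg2, edgeR), leaving each of the other 3 libraries out gave 105 to 167 calls that held both, and Actg2 was not called without the highest doublet scores (adjusted p = 0.0843). Tagln at 99.7 and 97.7 CPM in XX against 1349.8 and 742 in XY missed the threshold (log2 -3.29 ± 0.37, edgeR adjusted p = 0.0767), as did Myh11 at 2.93 and 4.25 against 110 and 64.5 (adjusted p = 0.141). The levels of each of these genes did not overlap between the sexes. With 2 libraries a sex this can also occur without a difference, and the share of all genes that did so is not given here. The progenitors of the same libraries had Acta2 at 174 and 324 CPM in XX and 1522 and 1350.2 in XY and Tagln at 46.0 and 59.7 and at 462 and 311, and whether the sexes differed more in either cell type was not tested.

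Pericyte genes had no call between the sexes among 21 tested, with a median of 0.02. Notch3 at 179 and 183 CPM in XX and 205 and 183 in XY (log2 0.02 ± 0.28, edgeR adjusted p = 0.999), and Pdgfrb at 285 and 259 and at 301 and 279 CPM (0.03) were close. Fold changes of this fit use TMM factors of the perivascular sums alone and the printed levels those of all 3 cell types, so small differences can take opposite signs. Members went both ways: Abcc9 at 170.2 and 221 CPM in XX against 95.8 and 81.5 (log2 1.25 ± 0.31, edgeR adjusted p = 0.345), Epas1 at 111 and 106 against 68.4 and 54.8 (0.96, adjusted p = 0.481), Higd1b at 129 and 259 against 110 and 97.4 (1.001, adjusted p = 0.619) and Des at 126 and 157 against 84.9 and 108 (0.64, adjusted p = 0.692) had higher values in XX in both libraries and were not called. Rgs5 was at 384 and 331 CPM in XX and 953 and 932 in XY and was not called (log2 -1.28 ± 0.24, edgeR adjusted p = 0.179), though the libraries did not overlap. Jag1 (26.4 and 21.2 against 110 and 167 CPM, log2 -2.40 ± 0.39, edgeR adjusted p = 0.147) and Hey2 (8.80 and 17 against 57.5 and 63.3, -2.16 ± 0.47, adjusted p = 0.272) also did not overlap and were not called. As the share of all genes without overlap is not given, the lack of overlap adds no support for a difference. No gene was called among 9 Notch, 3 PDGF, 15 vessel signal, 15 vessel tone, 12 basement membrane, 25 interstitial matrix, 20 progenitor and 10 stress genes. In simulated sums of this size 3% of genes changed by 1 on the log2 scale and 46% of those changed by 2 were recovered. Most moderate differences between the sexes were thus not detectable with sums of this number and size.

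**Figure D5:**
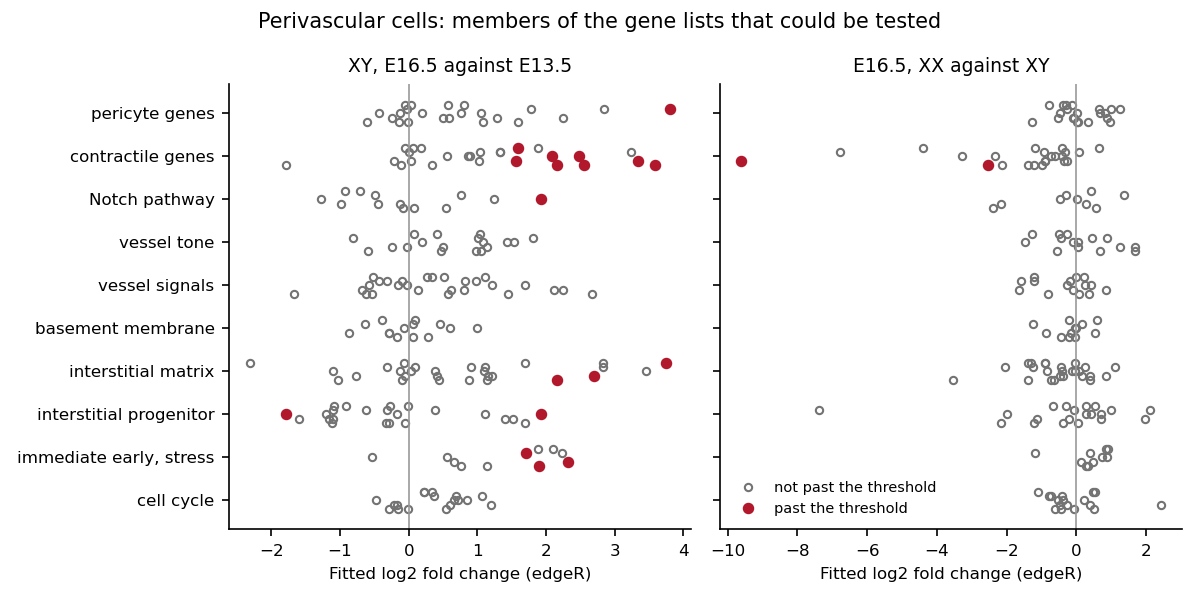
Fitted log2 fold changes of perivascular cells for the genes of each list, for E16.5 against E13.5 in XY and for XX against XY at E16.5, with 1 point per gene and genes past the threshold filled red. Contractile genes lie mostly above 0 over time and mostly below 0 in XX, and the fitted value of Actg2 between the sexes, where XX is at 0, is no bound.

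Within the group at E13.5 XY, contractile transcripts were found less often in cells with a channel transcript than in the other cells. A cell with no UMI found may still hold the transcript. In cells thinned to 3000 UMIs, 26.4% of those with a UMI of Kcnj8 or Abcc9 at E13.5 XY had one of Tagln or Myl9, against 46.7% of those without. In E16.5 XX these shares were 64.5 and 42.9%, and in E16.5 XY 78.4 and 85%. These are shares over 160, 45 and 111 cells that come from 2 libraries each, and they are given as a description with no test. The direction at E13.5 XY was the opposite of that at E16.5 XX.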

How the data were processed

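Perivascular cells of 20 single-cell libraries were analysed on the raw UMI counts that the authors deposited as 1 matrix of 94705 cells and 26397 genes. For 41266 of these cells the UMI total of the matrix equaled that of the deposited cell table. Totals of the matrix were used for all cells, and the cause of the mismatch was not tested. Per the paper's methods, the authors ran Cell Ranger 2.1 on GRCm38 with a GFP sequence added, chose barcodes by the density of UMIs, and removed no cell for quality or doublet score. Cell types and cycle phases were taken from the deposited cell table, of whose 27 columns 5 were used. Replicates were numbered by date, as titles give them. Members, gene lists and tests were chosen with earlier results of these data known, and list results are counts and medians, not independent evidence.

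UMIs were summed per library over each cell type with at least 5 cells. Early and late interstitial progenitors were summed together. Levels are CPM scaled by TMM factors computed over the sums of all 3 cell types, and ratios are on the scale of log2(CPM + 1). The test was the two-sided quasi-likelihood test of edgeR 4.0.16 (filterByExpr, TMM, p-values adjusted after Benjamini and Hochberg over all genes tested; R 4.3.3, limma 3.58.1), on the 7 perivascular sums for stage, the 4 sums of E16.5 for sex, and 8 sums with library as a block for the differences between cell types. Calls needed an adjusted p under 0.05 with a natural log change of 0.25 or more (log2 0.361). DESeq2 1.42.0 was an alternative.

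Sums of 1 library are paired by that library. Their deviations from the group means correlated at 0.290 and 0.291 between perivascular cells and progenitors at E13.5 and E16.5, and at 0.434 and 0.347 between perivascular and endothelial cells. Named are members of the lists, the 10 largest rises and 10 largest falls of each test among called genes whose libraries do not overlap, and the 20 genes with the highest lowest ratio at 50 CPM or more in perivascular cells. Where levels are said not to overlap, the share of all genes that do so is not given, and this is a description. The fits were tested on simulated data in which 200 genes had been changed, where 51 and 97% (progenitors) and 30 and 81% (endothelium) of the changes by 1 and 2 on the log2 scale were recovered in the differences between cell types. In all fits the changed genes were drawn among those with a mean above 20 CPM. The simulated sums otherwise shared the same profile, so recovery for lower genes, or beside differences between cell types or libraries, was not tested. Doublets were kept. Scores were computed here with the Scrublet function of scanpy 1.11.5, which called 0 to 3 of the perivascular cells of a library. Further tools were pandas 2.3.3, numpy 2.4.6, matplotlib 3.10.9 and scipy 1.17.1 under python 3.11.15. Positions are of GENCODE on GRCm38, and upstream sequences of RefSeq on GRCm38.p6.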

Additional observations from a re-analysis of the deposited data

Results flagged for a closer look

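Between E13.5 and E16.5 in XY, 434 genes changed differently in perivascular cells and in interstitial progenitors by the test of that difference (edgeR, adjusted), and the values here are the log2 difference of the changes, perivascular minus progenitor. Among pericyte genes these were Rgs5 1.50, Pdgfrb 1.23, Mcam 1.19, Notch3 1.34, Cox4i2 1.35, Ndufa4l2 1.48, Epas1 1.52, Cd248 -0.97 and Des -0.79. Contractile and caveolar genes were Myl9 0.55, Tpm1 0.53, Cald1 0.92, Pcp4l1 1.56, Vcl 0.76, Actn1 0.81, Crip1 0.55 and Cav1 3.403. Signaling genes were Jag1 1.18, Dlk1 -0.69, Hey2 2.04, Nrarp 1.94, Pdgfa 1.30, Trpc6 1.98 and Agtr2 -3.50, and among genes with at least 10 UMIs in every group the 2 largest positive differences were Sox6 4.13 and Cbln1 3.63, which fell in progenitors and overlapped between the stages in perivascular cells. With equal numbers of cells the count was 37 and without the library block 0, and none of these 9 pericyte genes was then called. A gene's own spread between libraries hardly entered the p-values of this fit. Rgs5 ranged from 0.45 to 3.26 over 11 alternatives. Progenitors were almost wholly of the early annotation at E13.5 XY and of the late one at E16.5 XY.

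The same test against endothelium gave 139 genes. Their log2 differences, perivascular minus endothelial, were Rgs5 5.77, Mcam 0.94, Notch3 2.70, Ndufa4l2 4.23 and Gja4 5.45 among pericyte genes. Contractile and caveolar genes were Tagln 2.74, Tpm1 0.83, Cald1 1.20, Cnn2 0.9998, Csrp1 0.95, Crip1 1.54 and Cav1 2.999, of which Tagln turned its sign without the highest doublet scores (-0.75) and with equal numbers of cells (-0.55). Beside these were Npr3 3.15, the clearance receptor of natriuretic peptides, Ifitm1 3.65, Fbln5 -4.48, Sema6a -3.15 and Sostdc1 -3.01. Rgs5 and Ndufa4l2 rest on 1 endothelial UMI each at E16.5 XY, ranged from 0.00083 to 9.29 and from 1.36 to 7.84 over 11 alternatives, and were called in 8 and 5 of them.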

How the results depend on the processing

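The count of genes changed between stages in XY was 52, and it was 391 with no filter on low counts, 233 with XY sums only, and 0 to 186 when each library was left out. DESeq2 (45), RLE size factors (60), a smallest sum of 10 cells (70) and removal of the highest 5% of doublet scores computed here (72, chosen after seeing the data) stayed within 1.5 times. Between the sexes the count was 3, and it was 14 with DESeq2, 147 with no filter and 1 to 167 when each library was left out. For the difference from interstitial progenitors 434 genes became 141 with DESeq2, 37 with equal numbers of cells, 0 without the library block and 175 to 238 when each library was left out. For the difference from endothelium 139 became 61 with DESeq2, 2 without the library block and 77 to 164 when each library was left out. These counts without the library block are those of the fit that ignores the pairing of sums. The cause of these moves was not tested. Leaving out a library leaves a group with 1 sum, which was assumed to vary like the others. Without TMM factors (chosen after seeing the data), the genes above progenitors in all 7 libraries went from 290 to 525 and those below from 1723 to 884, and those above endothelium from 788 to 1206. The share difference between XX and XY kept its sign in all 16 alternatives and passed 0.05 in none, at -0.540 to -0.341 percentage points when each library was left out (exact permutation p = 0.0556 to 0.194).

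Of 429 values of 33 named genes over the stage alternatives, 326 were still called. The like counts were 24 of 27 (3 genes) for sex, 440 of 660 (60 genes) for progenitors and 266 of 374 (34 genes) for endothelium. The sign turned for Tagln against endothelium, at -0.75 without the highest doublet scores and -0.55 with equal numbers of cells, where neither was called (adjusted p = 0.717 and 0.871, edgeR). Not run were the authors' doublet score, since the cell table used here holds none, and a date block between the sexes, since 4 sums on 3 dates leave no residual degrees of freedom. Depth limits E12.5 most, with 7 cells and 99936 UMIs.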

Other observations

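The cells annotated perivascular before E12.5 XY, and in XX before E16.5, were 3 single cells. The cell of E11.5 XY replicate 2 held 22 UMIs of Acta2, 3 of Pdgfrb and 0 of Rgs5 and Notch3, among 12244 UMIs. The cell of E12.5 XX replicate 2 held 4 of Rgs5, 4 of Notch3, 3 of Pdgfrb and 0 of Acta2, among 12452. The cell of E13.5 XX replicate 1 held 8 of Kcnj8, 4 of Pdgfrb, 2 of Rgs5 and 0 of Notch3 and Acta2, among 33967. None of the 3 held a UMI of the endothelial genes Pecam1 or Cdh5.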
